A study of Rattus with 12 samples.

Results

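The low dose of fentanyl (0.01 μM for 4 days) was compared with no fentanyl in 8 of the 12 cultures of the series. The members were chosen by the dose in their labels: 4 untreated cultures (0 μM), which carry the letters A, G, M and P, and 4 low dose cultures, which carry the letters B, H, N and Q. All of them were co-cultures of Sprague Dawley rat cortical neurons, astrocytes and oligodendrocyte precursor cells (OPCs), bought as separate cells and mixed, and no sorted population was sequenced. The other 4 cultures (C, I, O and R) received 10 μM fentanyl and entered only the model fits described here. The table holds 17337 genes, of which 15111 had a count in any culture.

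Fentanyl is a synthetic opioid that binds the mu-opioid receptor, a receptor coupled to inhibitory G proteins. Once bound, the receptor lowers adenylyl cyclase activity, opens inwardly rectifying potassium channels and closes voltage-gated calcium channels, which reduces firing and transmitter release. Microglia and other macrophages are one of several sources of complement and chemokine transcripts in brain tissue, while fibrillar collagens come mainly from fibroblasts and mural cells.

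The consecutive letters of the labels give 4 sets of an untreated and a low dose culture, A-B, G-H, M-N and P-Q. The labels do not say what the letters stand for, nor whether cultures of a condition came from separate animals or preparations, so p-values measure only the spread between these cultures. The total counts ran from 12059872 to 17023909 in the untreated and from 12907388 to 16512387 in the low dose cultures. Levels are given as CPM, a gene's count scaled to a library total that is the same for every culture after TMM scaling, and differences within a set as the low dose minus the untreated value of log2(CPM + 1).

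Untreated culture G and low dose culture N stood apart from the others before any test. The marker score of a cell type averaged log2(CPM + 1) across its markers, and the neuron score (14 genes such as Rbfox3, Map2 and Snap25) was 4.12 in G and between 7.43 and 7.87 in the other 7 cultures. Rbfox3, which encodes the neuronal nuclear protein NeuN, was at 1.297 CPM in G and between 59.4 and 91.4 CPM in the others. Culture G also had more of the markers of fibroblasts and mural cells, with a score of 5.68, and of endothelial cells, with a score of 2.81. In the low dose cultures, the score for fibroblasts and mural cells was 5.94 in N and between 3.47 and 4.15 in B, H and Q. The microglia score (13 genes such as Aif1, Csf1r and Trem2) was 5.99 in N and 5.75 in G, but 2.14 in P and 2.33 in Q. In bulk RNA, fewer cells of a type and less RNA per cell cannot be told apart. For this reason a fit with G and a fit without G are both given for the lists and the genes that the results turn on, with differences within the 4 letter sets.

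**Figure D1:**
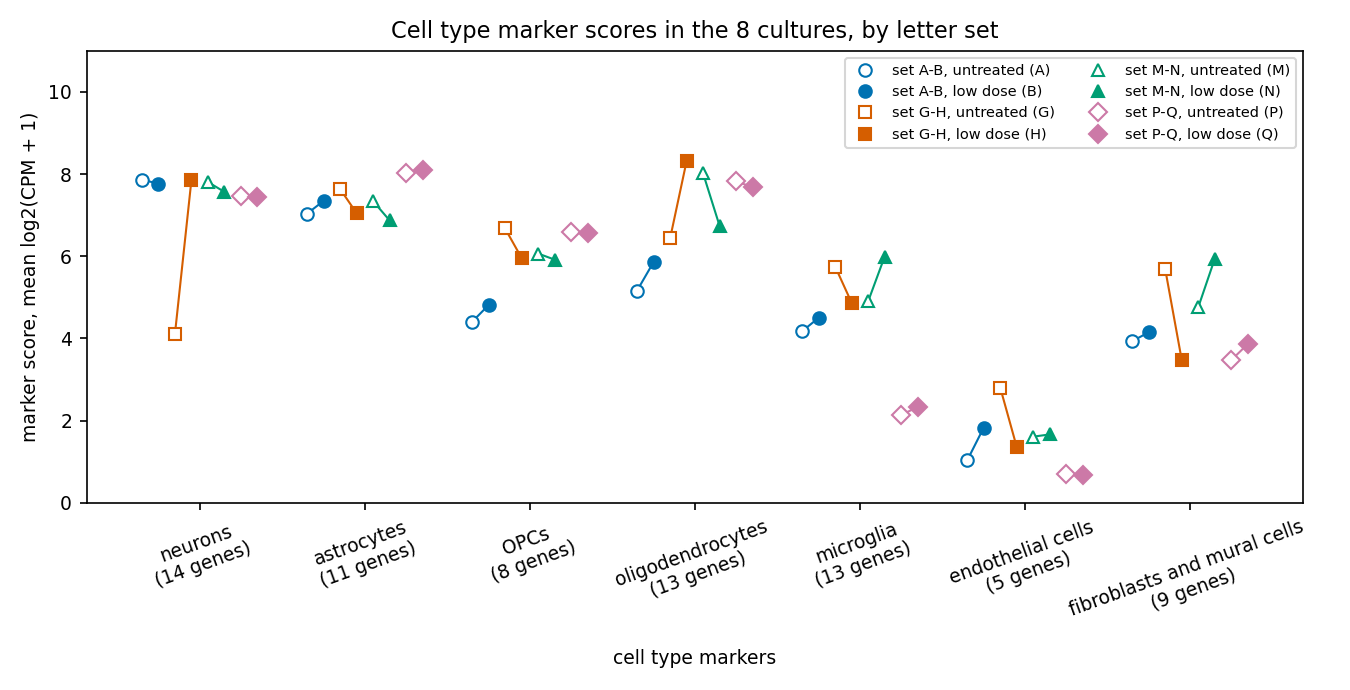
Marker score of 7 cell types (vertical axis, log2(CPM + 1) averaged across the markers kept) in each of the 8 cultures. Open symbols are untreated and filled symbols low dose cultures, each color and shape is a letter set, and a line joins the untreated to the low dose culture of that set. Culture G (open square) lies at 4.12 for neurons, below the 7.43 to 7.87 of the other cultures, and the microglia scores of P and Q are 2.14 and 2.33.

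The neuron score was 6.81 ± 1.81 (SD, n = 4) in the untreated and 7.66 ± 0.19 in the low dose cultures, and 7.71 ± 0.22 (n = 3) in the untreated cultures without G. The difference of 0.84 with all 4 untreated cultures thus became -0.06 without G. Within the sets the neuron score differed by -0.10 in A-B, 3.75 in G-H, -0.24 in M-N and -0.03 in P-Q. For astrocytes the differences were 0.31, -0.59, -0.47 and 0.08 in the same order, and for OPCs 0.41, -0.72, -0.15 and -0.03. The oligodendrocyte score differed by 0.70, 1.88, -1.28 and -0.15. No score moved the same way in all 4 sets. The microglia score was higher at the low dose in A-B, M-N and P-Q, by 0.33, 1.09 and 0.19, and lower in G-H, by -0.88, and that for fibroblasts and mural cells did likewise, by 0.21, 1.18 and 0.39 against -2.21.

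No gene was called for low dose vs. untreated in the model of all 12 cultures with 1 factor of unwanted variation. A call needed an adjusted p under 0.05 and an absolute log2 fold change above 0.5 in the quasi-likelihood test of edgeR, and 0 of 12271 genes (0%) met both. At an unadjusted p under 0.05, 67 genes were higher (0.546%) and 24 lower (0.196%). The smallest adjusted p of the edgeR test was 0.9999. DESeq2 with the same factor also called 0 genes, with 86 higher and 41 lower at an unadjusted p under 0.05. The factor took the value 0.65 in culture G and values from -0.50 to -0.13 in the other 11 cultures, which set G apart from the rest.

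A second fit left out culture G and used the letter set as a block. It also called 0 of 12337 genes (0%) by the quasi-likelihood test of edgeR, with a smallest adjusted p of 0.6444. More genes passed an unadjusted p under 0.05, namely 537 higher (4.35%) and 393 lower (3.19%). These 2 shares are the background for the list counts of this fit only. The model of 12 cultures has 0.546% and 0.196%, so a list count of 0 in that model is near its background. Without low dose N, 259 of 12302 genes were higher and 352 lower. Without letter set M-N-O these were 296 and 206 of 12374 genes. Without G, low dose culture H entered this fit only through high dose culture I of its letter set. Of the 91 genes that passed this p in the first model and the 930 in the second, 61 passed it in both with the same sign. The likelihood ratio test of edgeR called 9 genes in the second fit and DESeq2 called 4, which are named further on. The 2 fits differ in culture G and also in the factor or block, so a contrast between them is not due to G alone. At an unadjusted p under 0.05 in edgeR, 245 genes passed with the factor and G left out, and 303 with the block and G kept. Unless another fit is named, fitted log2 fold changes and p-values are from the second fit, and p-values are unadjusted.

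Genes of neuronal signaling had median differences below 0 in sets M-N and P-Q and above 0 in G-H, and in A-B the medians ranged from -0.14 for metabotropic glutamate receptors to 0.16 for GABA-A receptor subunits. Among the calcium channels, exchangers and pumps, 7 of 22 genes were lower at an unadjusted p under 0.05 and 0 higher, a share of 31.8% against 3.19% of all genes. The median log2 fold change of the list was -0.16, beside 0.0021 over all genes. In the model of 12 cultures, which keeps G, 0 of these 22 genes passed that p in the edgeR test in either direction, and the median was on the other side of 0, at 0.08. Among genes of presynaptic release 4 of 24 were lower (16.7%) and 0 higher, and among GABA-A receptor subunits 2 of 12 (16.7%). Among ionotropic glutamate receptors 2 of 18 were lower (11.1%) and among metabotropic glutamate receptors 1 of 8 (12.5%). In the model of 12 cultures, 0 genes of these 4 lists were lower and 1 presynaptic gene was higher. The medians were 0.30, 0.27, 0.04 and 0.10 in that model, in the same order, and -0.13, -0.12, -0.08 and -0.22 in the second fit. With the factor and G left out they were -0.11, -0.0052, -0.0102 and -0.19, and with the block and G kept 0.45, 0.41, 0.10 and 0.24. Without low dose culture N the calcium list had 6 lower genes, but without letter set M-N-O it had 1. The presynaptic list had 4 and 3 under the same omissions. For GABA-A receptor subunits the counts were 1 and 0, for ionotropic receptors 2 and 2, and for metabotropic receptors 0 and 0.

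Grin2b, an NMDA receptor subunit gene, was at 50.8, 1.95, 41.6 and 28.8 CPM in the untreated cultures A, G, M and P, and at 38.8, 14.1, 30.3 and 20.2 CPM in the low dose cultures B, H, N and Q. Each low dose culture lay below its untreated partner except H, and the groups overlapped. The fitted log2 fold change was -0.55 ± 0.16 (SE) without G (unadjusted p = 0.00639, adjusted p = 0.644, edgeR) and -0.16 ± 0.45 in the model of 12 cultures. Grin2a, another NMDA receptor subunit gene, was at 28.7, 0.713, 54.996 and 35.7 CPM untreated and 24.5, 18.3, 39.5 and 25.2 CPM at the low dose. Its fold change was 0.05 ± 0.62 in the model of 12 cultures and -0.52 ± 0.16 without G (unadjusted p = 0.0111, adjusted p = 0.644, edgeR). For both genes the low dose culture H had the lowest level of the 4, with 14.1 and 18.3 CPM.

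Cacna1e, which encodes the pore of the R-type calcium channel, was at 43.8, 0.649, 53.7 and 33.4 CPM in A, G, M and P and at 35.5, 13.7, 35.5 and 22.2 CPM in B, H, N and Q. The log2 fold change was -0.61 ± 0.19 without G (unadjusted p = 0.00992, adjusted p = 0.644, edgeR). The other voltage-gated calcium channel genes with an unadjusted p under 0.05 were the L-type genes Cacna1c and Cacna1d, at -0.28 ± 0.10 and -0.25 ± 0.09, and the T-type genes Cacna1g, at -0.45 ± 0.18, and Cacna1i. Slc8a2, a sodium-calcium exchanger gene, was at 161, 4.28, 207 and 95.8 CPM untreated and 141, 142, 119 and 83.7 CPM at the low dose, with a log2 fold change of -0.37 ± 0.16. In the model of 12 cultures the values of these genes lay on both sides of 0, with -0.07 ± 0.59 for Cacna1e and 0.15 ± 0.50 for Slc8a2.

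On the presynaptic side, the members with the smallest p were Bsn and Pclo, the large scaffold proteins of the active zone, with Rims2 and Unc13a, which prime vesicles for release. Bsn was at 284, 16.6, 344 and 281 CPM in A, G, M and P and at 246, 189, 281 and 214 CPM in B, H, N and Q. With G left out, B, H and Q lay below every untreated culture and N level with P, and the log2 fold change was -0.33 ± 0.10 (unadjusted p = 0.0107, adjusted p = 0.644, edgeR). Pclo had a log2 fold change of -0.42 ± 0.17. In the model of 12 cultures Bsn had 0.11 ± 0.37 and Pclo -0.07 ± 0.45. Slc17a6, the vesicular glutamate transporter gene VGLUT2, was the list member that was higher in all 4 sets. Cntn2, an axonal cell adhesion gene, was named only because the likelihood ratio test called it. It was at 77.1, 3.50, 49.8 and 18.0 CPM untreated and 59.0, 48.4, 31.8 and 12.1 CPM at the low dose, a log2 fold change of -0.52 ± 0.11 (adjusted p = 0.0307 in the likelihood ratio test of edgeR), and 0.01 ± 0.61 in the model of 12 cultures.

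A list of genes with very long transcripts and one of short transcripts were written after long genes had been seen among the lower ones, so their counts describe the genes chosen and test nothing. Of 18 genes of very long transcripts, 11 were lower at an unadjusted p under 0.05 in the second fit and 0 higher. Most of the 18 are used by many cell types, such as Dync1h1, the dynein heavy chain gene, and Ubr4, a ubiquitin ligase gene. In the model of 12 cultures 0 passed that p in the edgeR test in either direction. Birc6, one of the 18, passed it with the block and G kept (unadjusted p = 0.0311, edgeR). The median log2 fold change of this list was -0.28 in the second fit and -0.27 in the model of 12 cultures. Its median difference was -0.02 in A-B, -0.40 in G-H, -0.27 in M-N and -0.30 in P-Q. The count was 12 without low dose N and 7 without letter set M-N-O. Dync1h1 was at 726, 707, 1205 and 848 CPM untreated and 613, 626, 989.5 and 600.4 CPM at the low dose, lower in every set. Of 76 cytosolic ribosomal protein genes, whose transcripts are short, 9 were higher and 0 lower, with a median log2 fold change of 0.15. Without N the count of higher genes was 1, and in the model of 12 cultures it was 0 in edgeR. Of the neuron markers 3 of 14 were lower and 0 higher, and these were Map2, which also has a long transcript, at -0.37 ± 0.12, Nefm at -0.23 ± 0.09 and Elavl3 at -0.18 ± 0.08. These 3 are 21.4% of the neuron markers, and the count was 1 without low dose N and 1 without letter set M-N-O. In the model of 12 cultures 0 neuron markers were lower and 1 was higher, and the median was 0.37 where it was -0.15 in the second fit. The part of transcript length in the lower neuronal genes was not tested.

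**Figure D2:**
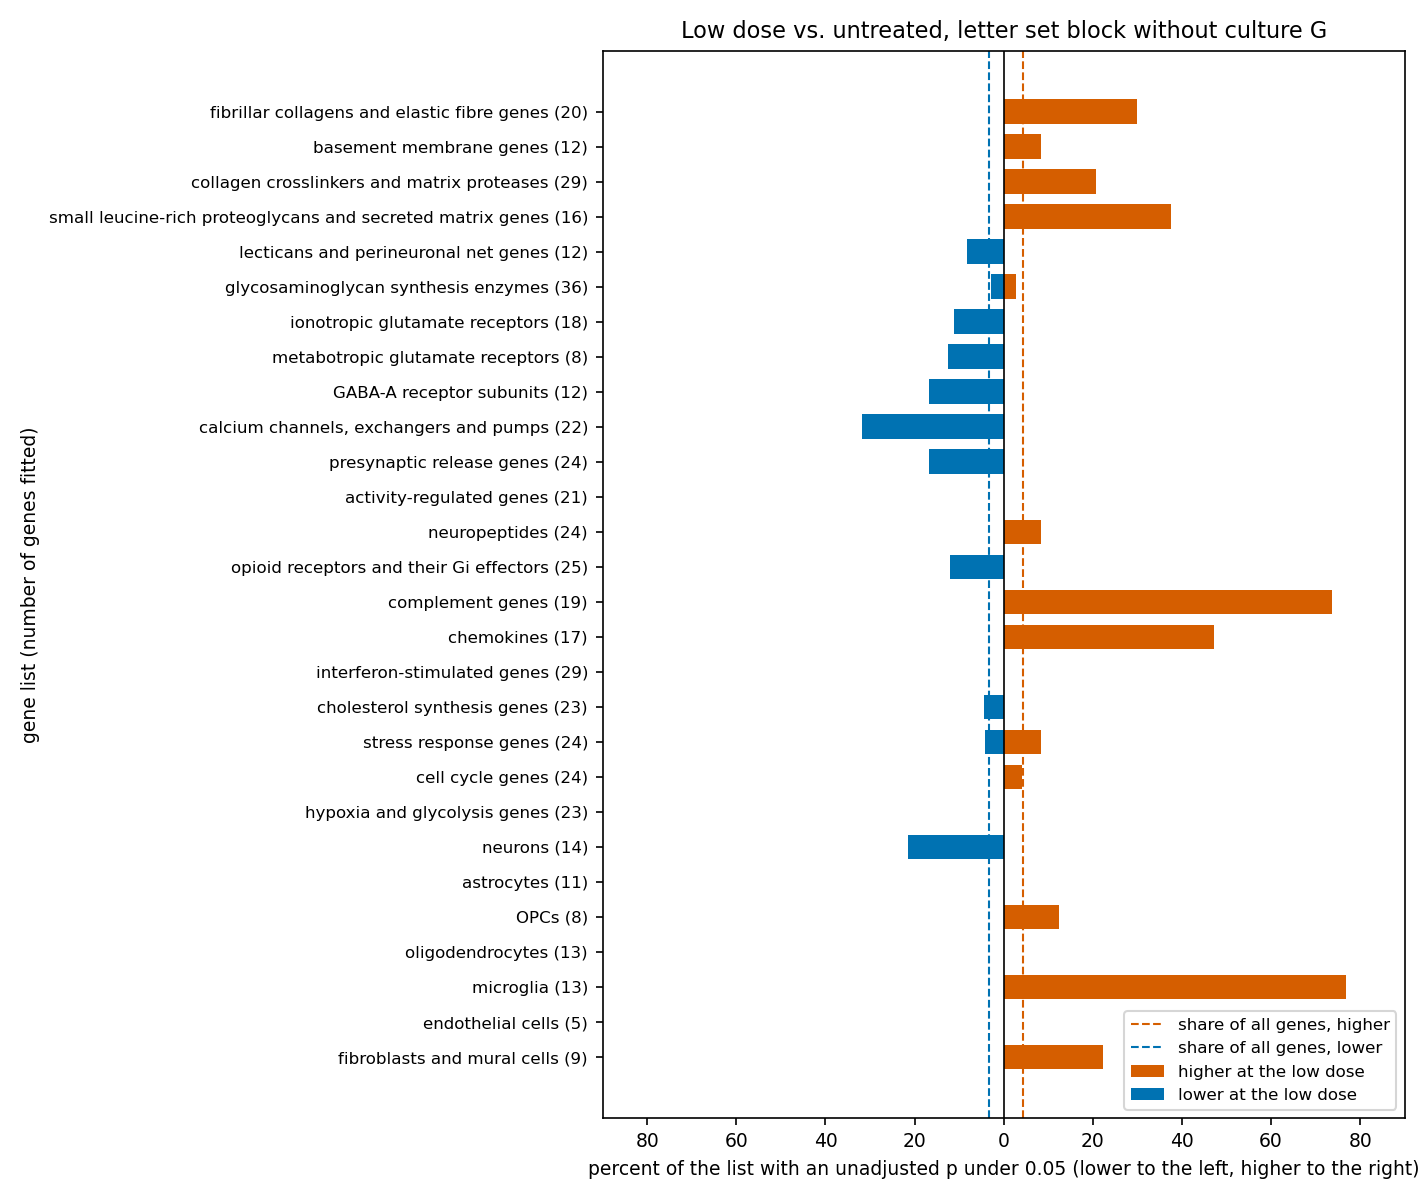
Percent of each gene list with an unadjusted p under 0.05 in the fit without culture G and with the letter set block, higher at the low dose to the right and lower to the left. Dashed lines mark the same shares over all 12337 genes, 4.35% and 3.19%. Microglia markers (76.9%) and complement genes (73.7%) have the longest bars. In the model of 12 cultures, which keeps G and has the factor instead of the block, 0 genes of either list passed this p in edgeR. In that model 0.546% of all genes were higher.

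Genes of the extracellular matrix were higher in culture N and in culture G, so their sign depended on the letter set. Among fibrillar collagens and elastic fibre genes, 6 of 20 were higher at an unadjusted p under 0.05 and 0 lower (30.0% against 4.35% of all genes), with a median log2 fold change of 0.72. Among collagen crosslinkers and matrix proteases 6 of 29 were higher, and among small leucine-rich proteoglycans and secreted matrix genes 6 of 16. The median difference of the collagen list was 0.04 in A-B, -3.11 in G-H, 1.58 in M-N and 0.29 in P-Q. Without low dose N, 2 of its genes were higher and 1 lower, and without letter set M-N-O 1 was higher. The secreted matrix list had 5 higher genes under each omission. With G kept, 2 genes of the collagen list, 0 of the crosslinker list and 2 of the secreted matrix list were higher and 0 lower in edgeR, with medians of 0.54, 0.12 and 0.83.

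Col3a1, a fibrillar collagen gene of fibroblasts, was at 1.71, 380, 8.57 and 1.66 CPM in A, G, M and P and at 1.54, 4.32, 233 and 4.06 CPM in B, H, N and Q. The highest untreated level was that of G and the highest low dose level that of N, and the remaining 6 cultures lay between 1.54 and 8.57 CPM. The fitted log2 fold change was 3.15 ± 0.88 without G (unadjusted p = 0.00544, adjusted p = 0.644, edgeR) and 2.43 ± 1.09 in the model of 12 cultures. Itga11, a collagen receptor gene, was at 115 CPM in N and from 0.138 to 12.3 CPM in the other 7 cultures, and its differences in A-B and P-Q were -0.30 and -0.55. Loxl1, a lysyl oxidase that crosslinks elastin, was at 5.49, 97.3, 6.72 and 10.1 CPM untreated and 7.08, 6.18, 23.3 and 13.8 CPM at the low dose. It was higher in A-B, M-N and P-Q, by 0.32, 1.65 and 0.41, and lower in G-H, by -3.78. Mmp2, a gelatinase gene, had differences of 0.33, -3.85, 2.36 and 0.22, and Col15a1, a collagen gene of the basement membrane zone, 0.32, -3.88, 1.91 and 0.30. For these 3 genes the model of 12 cultures gave 0.30 ± 0.41, 0.34 ± 0.87 and 0.68 ± 0.67, and the fit without G gave 0.83 ± 0.25, 0.96 ± 0.40 and 1.45 ± 0.67.

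Mgp, which encodes matrix Gla protein, an inhibitor of calcification, did not share the pattern of G and N. It was at 293, 220, 226 and 279 CPM in A, G, M and P and at 311, 404, 400.1 and 354 CPM in B, H, N and Q. All 4 low dose cultures lay above all 4 untreated cultures, and the means were 367 ± 44.1 and 254 ± 36.8 CPM (SD, n = 4). Mgp had the smallest p of all genes in the model of 12 cultures, with a log2 fold change of 0.50 ± 0.13 (unadjusted p = 0.00339, adjusted p = 0.9999, edgeR), and 0.43 ± 0.13 without G. Non-overlap of this kind was seen for 24 genes with higher (0.196%) and 26 with lower levels (0.212%) at the low dose. Omd, the gene of the small proteoglycan osteomodulin, was higher in all 4 sets, by 0.47, 0.14, 1.67 and 0.65. Ogn, its relative osteoglycin, was higher in 3 sets, by 0.49, 2.45 and 1.45, and lower in G-H, by -3.26.

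Markers of microglia and complement genes were the lists with the largest share of higher genes. Of 13 microglia markers 10 were higher at an unadjusted p under 0.05 and 0 lower (76.9%), with a median log2 fold change of 0.61. Of 19 complement genes 14 were higher and 0 lower (73.7%), with a median of 0.57, and 3 of these genes, C1qa, C1qb and C1qc, also stand in the microglia list. The median difference of the microglia markers was 0.30 in A-B, -0.57 in G-H, 1.12 in M-N and 0.20 in P-Q. Without low dose N, 3 microglia markers and 8 complement genes were higher, and without letter set M-N-O 2 and 6. Among chemokines 8 of 17 were higher and 0 lower, with 5 and 3 under the same omissions. In the model of 12 cultures 0 of 13 microglia markers, 0 of 19 complement genes and 0 of 17 chemokines passed this p in the edgeR test, with medians of 0.88, 0.49 and 0.55.

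C1qa, a subunit of the first complement component, was at 87.2, 269, 128 and 7.48 CPM in A, G, M and P and at 103, 164, 279 and 8.87 CPM in B, H, N and Q. It was higher at the low dose in A-B, M-N and P-Q and lower in G-H, where culture G had the highest untreated level. The spread over the untreated cultures, from 7.48 to 269 CPM, was larger than any difference within a set, and the log2 fold change was 0.57 ± 0.17 without G (unadjusted p = 0.0072, adjusted p = 0.644, edgeR) and 0.78 ± 0.99 in the model of 12 cultures. For C1qa the factor without G gave 0.62 ± 0.88, and the block with G kept gave 0.21 ± 0.26. Aif1, the gene of the microglial protein Iba1, was at 14.4, 44.6, 32.0 and 1.497 CPM untreated and 21.5, 41.6, 88.8 and 1.99 CPM at the low dose. Cfd, which encodes complement factor D, was at 3.89, 7.98, 11.2 and 0.416 CPM untreated and 6.46, 21.2, 30.3 and 0.481 CPM at the low dose, higher in each set. Clu, the gene of clusterin, an astrocyte-secreted chaperone that also restrains complement, was at 2086, 2115, 966 and 804 CPM untreated and 2435, 1139.6, 1197 and 996.5 CPM at the low dose, a log2 fold change of 0.28 ± 0.08 without G (unadjusted p = 0.00575, adjusted p = 0.644, edgeR) and 0.05 ± 0.45 in the model of 12 cultures. Among the chemokines, Cxcl12 was at 5.08, 125, 10.1 and 11.6 CPM untreated and 11.8, 5.74, 34.7 and 14.4 CPM at the low dose.

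Genes of border macrophages, which sit at vessels and meninges, were added as a list after the values had been seen. Of its 11 genes 5 were higher and 0 lower, with 2 without N and 5 without letter set M-N-O. In the model of 12 cultures 0 passed in edgeR. Lyve1, a hyaluronan receptor gene of these cells and of lymphatic vessels, was at 13.1, 8.95, 13.8 and 1.75 CPM in A, G, M and P and at 21.6, 22.0, 84.2 and 3.03 CPM in B, H, N and Q. Clec10a, a lectin receptor gene, was at 6.31, 19.6, 44.7 and 1.66 CPM untreated and 9.77, 61.2, 60.4 and 2.68 CPM at the low dose. Both were higher in all 4 letter sets, including G-H, although culture G had the higher microglia score of that set. Their log2 fold changes were 1.48 ± 0.44 and 0.51 ± 0.18 without G, and 1.81 ± 0.99 and 1.11 ± 1.17 in the model of 12 cultures. With the block and G kept they were 1.47 ± 0.41 and 0.83 ± 0.27 (unadjusted p = 0.00774 and 0.0142, edgeR). Pf4 and Mrc1, from the same list, were lower in G-H and in P-Q.

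**Figure D3:**
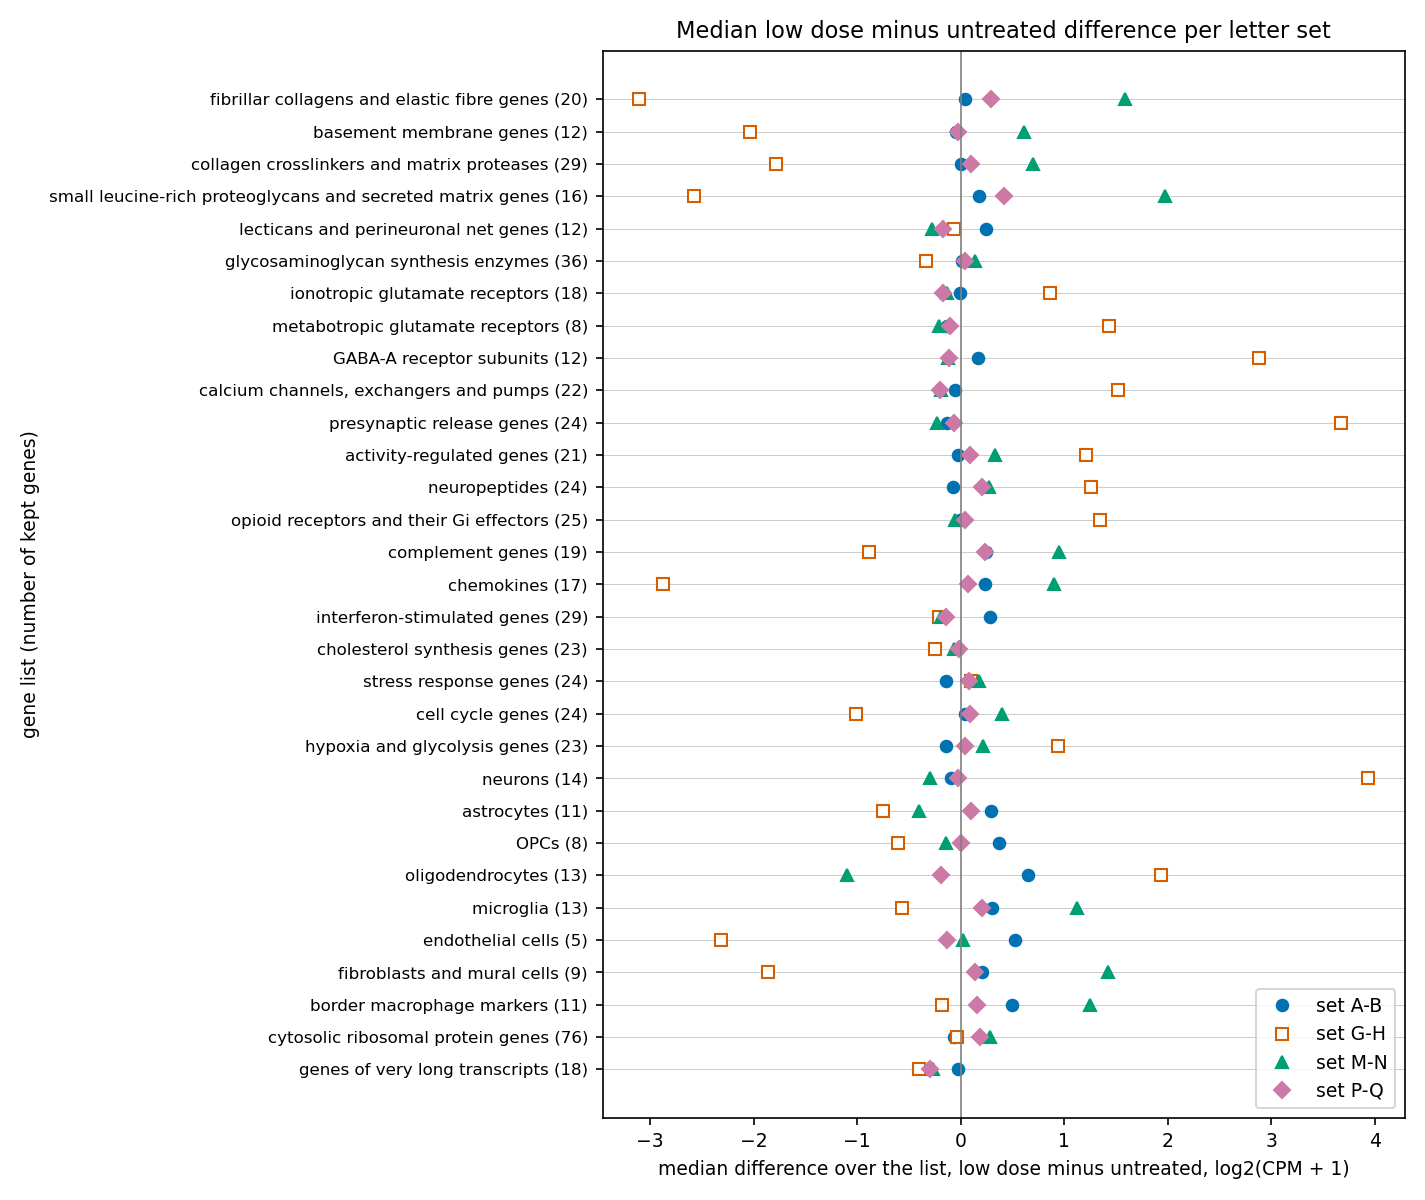
Median over each gene list of the low dose minus untreated difference of log2(CPM + 1), within the letter sets A-B (circles), G-H (open squares), M-N (triangles) and P-Q (diamonds). The vertical line marks no difference. Set G-H lies farthest from 0 for most lists, with 3.94 for neuron markers and -3.11 for fibrillar collagens, and M-N is the highest of the other sets for collagens (1.58) and microglia markers (1.12).

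A direction shared by all 4 letter sets was found for 498 higher genes (4.06%) and 648 lower genes (5.28%) of the 12271. In the 3 sets without G-H, 1707 genes were higher (13.9%) and 1684 lower (13.7%). The named genes below were taken for the size of their smallest difference over the 4 sets, so their direction is a description. They came from 390 higher and 576 lower genes with a mean of at least 5 CPM. Among the 648 lower genes, the low dose culture H had the lowest of the 4 low dose levels in 376 (58.0%), whereas among all genes it did so in 23.6%. Among the 498 higher genes, H had the highest of the 4 levels in 187 (37.6%), against 22.6% of all genes.

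S100a6, a small calcium-binding protein gene of astrocytes and fibroblasts, led the higher genes. It was at 209, 72.7, 94.4 and 68.2 CPM in A, G, M and P and at 343, 159, 151 and 108 CPM in B, H, N and Q, which gave differences of 0.71, 1.12, 0.67 and 0.66. Each low dose culture lay above its partner, by most in G-H, but the groups overlapped because A was above H, N and Q. The log2 fold change was 0.67 ± 0.16 without G (unadjusted p = 0.00194, adjusted p = 0.644, edgeR), and DESeq2 called it (adjusted p = 0.0361). In the model of 12 cultures the fold change of S100a6 was 0.63 ± 0.56. The factor without G gave 0.57 ± 0.33, and the block with G kept gave 0.79 ± 0.18. Its relative S100a4 was at 21.1, 82.4, 23.1 and 19.6 CPM untreated and 40.1, 39.8, 38.3 and 28.3 CPM at the low dose. Without G, all 4 low dose cultures lay above the 3 untreated ones, and both DESeq2 (adjusted p = 0.0118) and the likelihood ratio test of edgeR (adjusted p = 0.00884) called it, at a log2 fold change of 0.72 ± 0.13 in the quasi-likelihood fit. With G kept, the fold change of S100a4 depended on the fit. It was 0.60 ± 0.21 with the factor, 0.0028 ± 0.43 without the factor and 0.22 ± 0.35 with the letter set block. In G-H, S100a4 was lower at the low dose.

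The other genes that DESeq2 called were Angpt4, an angiopoietin gene, and Wfdc1, a gene of a small secreted protein. Angpt4 was at 34.5 CPM in N and from 0.0832 to 2.23 CPM in the other 7 cultures, and Wfdc1 was at 27.3 CPM in N and from 0.416 to 3.29 CPM in the others. The likelihood ratio test called both of them, with S100a4, Cntn2, Cox6a2, Csf3r, Fam150b, Vsig4 and Slpi. These genes are named because those tools called them, after their values had been seen. Vsig4, a complement receptor gene of macrophages, was at 0.413, 21.3, 9.19 and 0.582 CPM untreated and 0.462, 10.4, 37.5 and 1.51 CPM at the low dose. Slpi, a protease inhibitor gene, was at 2.61 CPM in N and at most 0.185 CPM in the other low dose cultures. Apart from Cntn2, S100a4, S100a6 and Cox6a2, the genes called by either tool had their highest low dose level in N.

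The 12 higher genes that the rule named include Lyve1 and Clec10a, described above, and S100a6. They also include Pld4, an endolysosomal exonuclease gene with differences of 0.62, 1.33, 1.27 and 0.53 in A-B, G-H, M-N and P-Q, RT1-DMb, an MHC class II chaperone gene with 0.36, 0.43, 1.25 and 1.04, and Cd101, an immunoglobulin superfamily gene with 1.14, 0.71, 0.30 and 0.28. In P and Q these 3 genes, Lyve1 and Clec10a were at or below 4.81 CPM. Tp53i3, a p53 target gene, was at 7.49, 9.92, 9.19 and 7.90 CPM in A, G, M and P and at 11.5, 14.8, 14.1 and 9.90 CPM in B, H, N and Q. Its log2 fold change was 0.61 ± 0.19 in the model of 12 cultures (unadjusted p = 0.00872, edgeR) and 0.50 ± 0.13 without G (unadjusted p = 0.00355, edgeR). Culture Q of the low dose was below untreated G by a small margin, so the groups overlapped. Arc, an immediate early gene of active synapses, was at 1.65, 1.10, 37.5 and 26.5 CPM untreated and 3.54, 170, 47.6 and 39.5 CPM at the low dose. Cox6a2, a subunit of cytochrome c oxidase, had differences of 0.34, 4.35, 0.62 and 0.48. Dok5, an adaptor protein gene, had 0.38, 1.98, 0.78 and 0.29. The remaining 2 were Lypd1, with 0.30, 0.48, 0.37 and 0.32, and Bfsp2, with 0.44, 1.54, 0.31 and 0.28.

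The 12 lower genes that the rule named had smaller differences. Pfkfb2 and Pfkfb4, which make the activator of phosphofructokinase and so tune glycolysis, were both among them. Pfkfb2 was at 50.3, 38.5, 43.8 and 54.9 CPM in A, G, M and P and at 40.9, 32.1, 35.0 and 45.9 CPM in B, H, N and Q. Its differences of -0.29, -0.25, -0.31 and -0.25 were the most even of the 24 genes, and the log2 fold change was -0.35 ± 0.12 in the model of 12 cultures (unadjusted p = 0.0145, adjusted p = 0.9999, edgeR) and -0.33 ± 0.08 without G (unadjusted p = 0.00185, adjusted p = 0.644, edgeR). Pfkfb4 had differences of -0.26, -0.72, -0.45 and -0.30. Among the 23 kept genes of hypoxia and glycolysis, 0 passed an unadjusted p under 0.05 in the second fit of edgeR.

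Ago4, an Argonaute gene of the microRNA machinery, was at 10.3, 6.10, 8.71 and 9.06 CPM untreated and 7.70, 4.08, 6.27 and 7.08 CPM at the low dose, with a log2 fold change of -0.48 ± 0.14 without G (unadjusted p = 0.00844, adjusted p = 0.644, edgeR) and -0.52 ± 0.20 in the model of 12 cultures. Birc6, a very large inhibitor of apoptosis gene that also stands in the list of very long transcripts, was at 184, 139, 240 and 189 CPM untreated and 155, 101, 199 and 149 CPM at the low dose. Prox1, a transcription factor gene of neuronal and oligodendrocyte differentiation, had differences of -0.22, -0.34, -0.84 and -0.43. Its log2 fold change was -0.71 ± 0.19 in the second fit and -0.53 ± 0.44 in the model of 12 cultures. Zc3h12c, a gene of the regnase family, was at 14.3, 19.1, 14.3 and 15.2 CPM untreated and 11.5, 5.87, 12.1 and 12.5 CPM at the low dose, and its groups did not overlap. The others were Tulp4, Plekhh2, Pik3r3, Cep97, Mib1 and Pygo1, with smallest differences between -0.18 and -0.25. For Tulp4, Birc6, Plekhh2, Zc3h12c, Cep97, Mib1 and Pygo1 the lowest level of all 8 cultures was in H, as it was for Ago4.

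**Figure D4:**
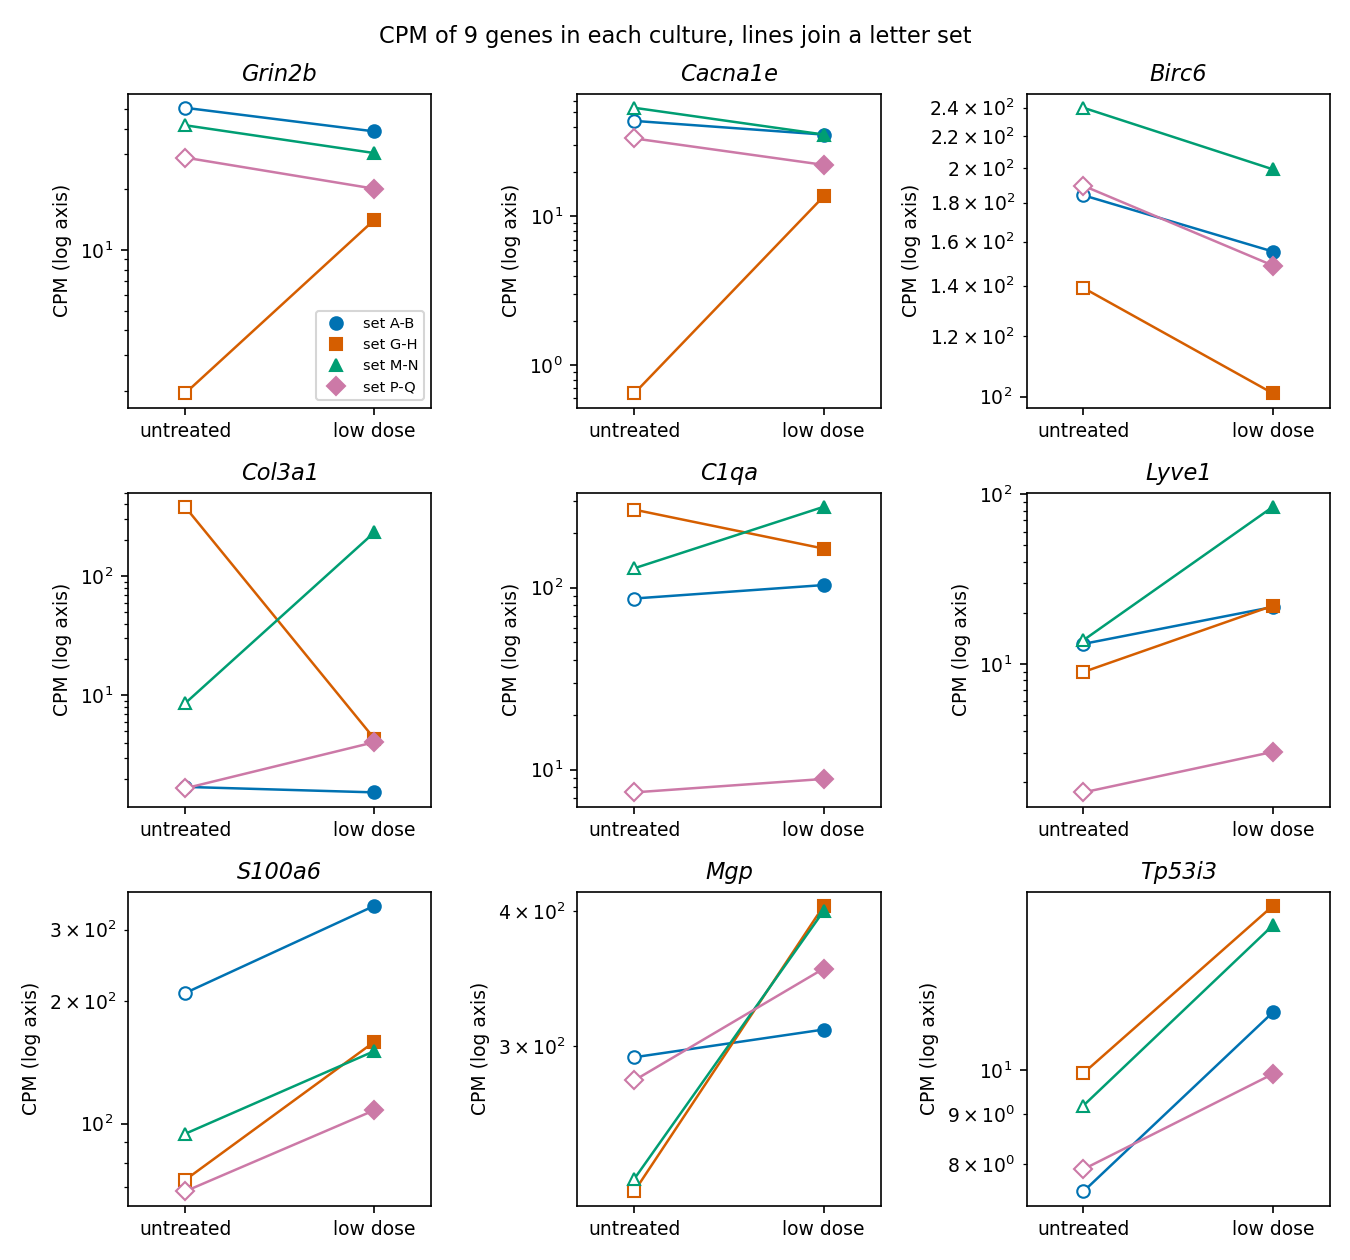
CPM of 9 genes in the untreated (open) and low dose cultures (filled), on a log axis, with a line for each letter set. Grin2b and Cacna1e slope down in 3 sets and up in G-H, Birc6 slopes down in all 4, Col3a1 ends at 233 CPM in N, and S100a6, Lyve1, Mgp and Tp53i3 slope up in all 4.

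The opioid receptors themselves were near the limit of detection. The mu receptor gene Oprm1 was at 0.582 CPM at most and the kappa receptor gene Oprk1 at 0.308 CPM at most, and neither passed the filter on low counts. The delta receptor gene Oprd1 was at 1.18, 0, 1.58 and 0.166 CPM untreated and 1.08, 0.988, 0.848 and 0.413 CPM at the low dose. Oprl1, the nociceptin receptor gene, was the best measured, at 22.6, 3.70, 21.0 and 17.8 CPM untreated and 25.5, 20.4, 16.9 and 19.3 CPM at the low dose. Its log2 fold change was -0.06 ± 0.12 without G, and a difference was not detectable at this spread.

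Of 25 kept genes of the opioid receptors and their Gi effectors, 3 were lower at an unadjusted p under 0.05 in the second fit and 0 higher (12% against 3.19% of all genes). These were Gnao1, the gene of the brain Go alpha subunit, at -0.16 ± 0.06, Kcnj6, the potassium channel gene GIRK2, at -0.31 ± 0.11, and Adcy1, a calcium-stimulated adenylyl cyclase gene, at -0.32 ± 0.12. In the model of 12 cultures the 3 values were 0.01 ± 0.12, 0.23 ± 0.62 and 0.07 ± 0.37. Kcnj6 was at 65.0, 2.34, 166 and 98.9 CPM untreated and 62.8, 87.5, 109 and 89.9 CPM at the low dose, and its difference was -0.60 in M-N but -0.05 in A-B and -0.14 in P-Q. Without letter set M-N-O, 0 of the 25 genes passed this p in the edgeR fit, and without N 1 did. In the model of 12 cultures Adcy3, another adenylyl cyclase gene, was the 1 member under this p, at 0.31 ± 0.13.

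Neuropeptide genes had a median log2 fold change of 0.34, and 2 of 24 were higher at an unadjusted p under 0.05 (8.33%) and 0 lower. In the model of 12 cultures 0 passed in edgeR and the median was 0.52. Trh, the gene of thyrotropin-releasing hormone, was at 6.37, 18.8, 3.02 and 3.16 CPM in A, G, M and P and at 9.08, 7.91, 6.07 and 8.05 CPM in B, H, N and Q, a log2 fold change of 0.92 ± 0.22 without G (unadjusted p = 0.00215, adjusted p = 0.644, edgeR) and 0.61 ± 0.46 in the model of 12 cultures. All 4 low dose levels but that of N were above the 3 untreated levels without G. Adcyap1, the gene of the peptide PACAP, was at 14.5, 1.23, 72.7 and 99.5 CPM untreated and 13.9, 85.9, 116 and 121 CPM at the low dose. The opioid peptide gene Penk was at 21.5, 65.1, 16.6 and 15.6 CPM untreated and 19.5, 34.6, 33.3 and 19.3 CPM at the low dose, with differences of -0.13, -0.89, 0.97 and 0.30. Tac1, Pnoc, Scg2 and Nppc, 4 of the 24 genes, were higher in all 4 sets and 0 were lower in all 4, beside 4.06% and 5.28% of all genes.

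Activity-regulated genes had a median log2 fold change of 0.20, and 0 of 21 passed an unadjusted p under 0.05 in the second fit of edgeR. With the 7 untreated and low dose cultures alone 3 were higher and 0 lower, where 485 of all 12140 genes were higher and 222 lower. Arc, Egr2, Bdnf and Rgs2, 4 of the 21 genes, were higher in all 4 sets and 0 were lower in all 4, beside 4.06% and 5.28% of all genes. Bdnf, the gene of a neurotrophin released with activity, was at 2.24, 4.48, 24.0 and 55.4 CPM untreated and 3.08, 17.7, 41.3 and 66.1 CPM at the low dose, so that the sets differed from each other by more than the doses did within a set. Nptx2, the neuronal pentraxin gene, had differences of -0.11, 4.42, 1.03 and 0.70.

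The remaining lists had at most 2 genes past this p in a direction, and in the model of 12 cultures 0 in edgeR. Of 29 interferon-stimulated genes 0 passed an unadjusted p under 0.05 in the second edgeR fit, of 23 cholesterol synthesis genes 1 was lower, of 24 cell cycle genes 1 was higher, and of 24 stress response genes 2 were higher and 1 lower. Hspb1, a small heat shock protein gene, was one of these, at 167, 187, 235 and 141 CPM untreated and 180, 209, 480 and 207 CPM at the low dose. Of 36 glycosaminoglycan synthesis genes 1 was higher and 1 lower, of 12 lectican and perineuronal net genes 1 was lower, and of 12 basement membrane genes 1 was higher. Among the astrocyte, oligodendrocyte and endothelial markers 0 of 11, 0 of 13 and 0 of 5 passed, among OPC markers 1 of 8 was higher, and among fibroblast and mural markers 2 of 9 were higher.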

How the data were processed

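STAR mapped the authors' reads against the rat assembly rn6, and featureCounts then tallied reads by gene. The deposited table holds these raw, whole-number counts of the authors for all 12 cultures, with no normalization applied. Poly(A) RNA was sequenced, and all columns of the table were assigned to a culture by their labels, leaving 0 unused.

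Counts were analysed in R 4.3.3 with edgeR 4.0.16. Libraries were scaled by TMM and genes kept by filterByExpr on the 3 conditions. The first model held the conditions and 1 RUVs factor over all 12 cultures, since the study used RUVseq without giving its procedure. The second held the conditions and the letter sets over 11 cultures without G. Both used the quasi-likelihood test with Benjamini-Hochberg adjustment. DESeq2 1.42.0 and the other settings of the closing section were alternatives, and the procedure was tested on simulated data. The simulated cultures shared their gene means apart from the changes put in, with no culture like G or N and no letter sets. They do not show how the fits behave when such cultures are present. No 2 cultures of a condition had identical or nearly identical counts.

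Letters pair the cultures only in part. The correlation across genes of the deviations from the condition means was 0.77 in A-B, -0.19 in G-H, 0.10 in M-N and 0.77 in P-Q with all 8 cultures, and 0.85 in A-B, 0.64 in M-N and 0.91 in P-Q with G and H left out.

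The members, gene lists and rules were chosen with earlier results of these data known, and 3 lists (border macrophages, ribosomal proteins, very long transcripts) after the values had been seen. Named genes are those the study names for the low dose, the 12 higher and 12 lower genes with the largest smallest difference over the 4 letter sets among genes of at least 5 CPM on average, up to 4 members of each list with the smallest p in the second fit, and the cell type markers. A gene named beyond these was chosen after its value had been seen. List symbols missing from the table were joined through older symbols, and those without a row are not analysed here. No sequences, coordinates or transcript lengths were used. For an untreated or low dose level of 0, the depth allows up to 3 counts, which covers counting error only.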

Additional observations from a re-analysis of the deposited data

Results flagged for a closer look

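Within a condition of 4 cultures, 24 of 166 groups of values had a highest or lowest culture that lay far from the other 3 by Dixon's criterion. Chance gives about 1 in 20 for independent groups. These groups share cultures and genes, and many genes were chosen for their values, so the 24 cannot be set against that rate. In the untreated condition this was culture G in each case. Its mean log2(CPM + 1) was 6.04 for collagen crosslinkers and matrix proteases and 5.17 for chemokines, above the others, and 1.27 for metabotropic glutamate receptors, 3.96 for calcium channels, exchangers and pumps, 3.76 for presynaptic release genes, 3.91 for opioid receptors and their Gi effectors and 4.12 for neurons, below the others. Single genes gave 0.649 CPM for Cacna1e, 92.0 CPM for Mib1, 16.6 CPM for Bsn, 90.2 CPM for Gnao1, 8.37 CPM for Adcy1 and 3.70 CPM for Oprl1, all low, and 82.4 CPM for S100a4, which was high.

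In the low dose condition the culture that stood apart differed from gene to gene. It was N, and high, for the fibrillar collagens and elastic fibre genes with a mean log2(CPM + 1) of 6.25, for Col3a1 with 233 CPM and for Wfdc1 with 27.3 CPM. It was B, and low, for Dok5 with 8.70 CPM, Bfsp2 with 3.001 CPM, Prox1 with 2.85 CPM and Adcyap1 with 13.9 CPM. It was H, and low, for Zc3h12c with 5.87 CPM and Mib1 with 54.5 CPM, and Q, also low, for S100a4 with 28.3 CPM.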

How the results depend on the processing

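The model of 12 cultures called 0 genes under no factor, 2 factors, the letter set replicate block, only the 8 cultures, DESeq2, its size factors, the likelihood ratio test of edgeR, no filter on low counts and each of the 4 untreated and 4 low dose cultures left out in turn, which ranged from 0 to 0. The letter set block without G called 4 genes by DESeq2 and 9 by the likelihood ratio test, and 0 under its other alternatives. At an unadjusted p under 0.05 the first model gave 91 genes, with 73 without low dose H, 477 without untreated A, 245 without G, 228 without M, 171 without P, 229 without B and 209 without Q. It gave 282 with 2 factors, 303 with the replicate block, 25 with only the 8 cultures and 168 without the filter. The second gave 930, with 1388 without untreated A, 1224 without low dose B, 707 with only the 7 cultures compared and 641 with DESeq2. It gave 424 without untreated M, 611 without low dose N and 502 without set M-N-O, the last added after the data were seen. The 498 higher and 648 lower genes of all 4 letter sets became 1707 and 1684 in the 3 sets without G-H. The marker scores kept within 1 SD under their alternatives, which is a wide margin where G is included. The SD of the neuron score over the untreated cultures was 1.81 with G and 0.22 without. Without G the low dose minus untreated difference went from 0.84 to -0.06 for neurons and from -0.11 to 0.30 for fibroblasts and mural cells. Fitted log2 fold changes of 54 genes were followed, and 1 to 9 changed sign under a setting. Without the factor these were -0.16 for Grin2a, -0.69 for Col3a1, -0.88 for Mmp2, -1.25 for Loxl1, -1.97 for Col15a1, -0.0501 for Clu, -1.19 for Cxcl12 and -0.0141 for Trh. With the replicate block and G kept they were -0.24 for Col3a1, -0.33 for Mmp2, -0.54 for Loxl1, -0.32 for Col15a1, -0.0380 for Clu, -0.46 for Cxcl12 and 0.0562 for Pclo. With G left out of the first model they were -0.56 for Grin2a, -0.37 for Slc8a2, -0.39 for Bsn, -0.46 for Cacna1g, -0.14 for Gnao1, -0.30 for Kcnj6, -0.38 for Adcy1, -0.0104 for Oprl1 and -0.42 for Cntn2, and with the replicate block without G -0.52, -0.37, -0.33, -0.45, -0.16, -0.31, -0.32, -0.0581 and -0.52 in the same order. With DESeq2 Gnao1 had -0.00088. The causes were not tested.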
